A study of Mus musculus with 6 samples.

Results

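Olfml2b, Olfml2a, Olfml3, Olfml1, Olfm1 and Olfm2 are the genes described here, 6 of the 43472 gene symbols counted in each library. They were taken by symbol from the count tables. Olfml2b was included because it had been seen higher in mutants, so its values in that contrast are a description and carry no p-value. The other 5 are the olfactomedin-like and noelin genes that accompany it. All 6 passed the filter on low counts.

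The proteins share the olfactomedin domain, a globular propeller fold found at the C-terminal end of many secreted glycoproteins. Members of this family sit in the extracellular matrix or at the cell surface, where they bind other matrix molecules, growth factor antagonists or receptors. Most of the intervertebral disc (IVD) is extracellular matrix laid down by its own cells, rich in aggrecan at the centre and in collagen fibres at the rim.

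RNA was sequenced from whole IVDs (T8 to L5) of mice at postnatal day 20, labelled as strain C57B6/J. The 3 mutant libraries came from Col2Cre;Adgrg6 f/f mice, in which a Cre driven by the Col2 promoter deletes the floxed adhesion G-protein-coupled receptor gene Adgrg6. The 3 control libraries came from littermates that the genotype label calls wild type, that the titles call Col2Cre controls and that the methods give as Cre (-). Each library was a pool of discs from 2 to 3 mice, so p-values measure the spread between pools. The Cre acts through the whole disc and also in neighbouring skeletal tissues, and expression in a bulk sample cannot tell fewer cells of a type from less RNA per cell. Adgrg6, listed as Gpr126, was at 124, 108 and 94.3 CPM (a count as parts per 1e6 of the gene counts, scaled by TMM) in the controls and at 138, 124 and 106 CPM in the mutants. These counts cover the whole gene rather than the deleted part and do not check the genotype.

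Between 9061491 and 12017008 counts lay on genes in each library, and 1 count was worth 0.0832 to 0.11 CPM. The 9 chondrocyte markers, none at 0, summed to 78907 to 139920 CPM in the 6 libraries, most of it Col2a1 at 62708 to 124063 CPM. A pair of control libraries stood apart. Control 1 carried 3308 CPM of 5 skeletal muscle genes, against 60.1 to 136 CPM in the other 5 libraries. In control 3, Col2a1 took 7.16% of gene counts, the lowest share of the 6 libraries.

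Across the 16152 genes tested, edgeR's quasi-likelihood test called 1 gene (0.00619%) at an adjusted p under 0.05. At an unadjusted p under 0.05 it called 1164 genes (7.21%), with 2.89% of genes higher and 4.32% lower in mutants. The 3 mutant libraries lay all on one side of the 3 control libraries in 11.4% of genes. They lay all above them in 881 genes (5.45%) and all below them in 963 genes. None of the other 5 members passed at the adjusted or the unadjusted threshold, and 1 of the 6 members, Olfml2b, had mutant and control libraries that did not overlap.

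Olfml2b encodes a secreted glycoprotein, also called photomedin-2, of the photomedin pair that binds chondroitin sulfate and heparin. The gene (ENSMUSG00000038463.8) lies on the plus strand of chromosome 1 from 170644532 to 170682789 (GRCm38) and its 8 exons add up to 3095 bp. The stretches of 250 bases before the start of Olfml2b, of its closest relative Olfml2a and of Olfml3, 3 genes with matrix roles, are shown. They are RefSeq sequences on GRCm38.p6, at chr1:170644282-170644531 on the plus strand for Olfml2b, chr2:38931730-38931979 on the plus strand for Olfml2a and chr3:103738002-103738251 on the minus strand for Olfml3. Capitals mark exact matches, on either strand, to an E-box (CANNTG) or a STAT dimer motif (TTCNNNGAA).
Olfml2b: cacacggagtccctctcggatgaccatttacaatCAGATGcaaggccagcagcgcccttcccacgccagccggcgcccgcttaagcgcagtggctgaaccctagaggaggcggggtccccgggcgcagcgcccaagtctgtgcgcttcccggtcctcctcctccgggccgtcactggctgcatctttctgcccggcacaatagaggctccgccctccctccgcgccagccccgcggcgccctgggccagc
Olfml2a: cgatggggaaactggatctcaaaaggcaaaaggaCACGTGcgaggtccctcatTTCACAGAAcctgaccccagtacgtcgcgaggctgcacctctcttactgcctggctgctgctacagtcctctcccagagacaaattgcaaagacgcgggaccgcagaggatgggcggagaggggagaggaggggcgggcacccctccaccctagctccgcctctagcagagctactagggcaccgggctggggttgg
Olfml3: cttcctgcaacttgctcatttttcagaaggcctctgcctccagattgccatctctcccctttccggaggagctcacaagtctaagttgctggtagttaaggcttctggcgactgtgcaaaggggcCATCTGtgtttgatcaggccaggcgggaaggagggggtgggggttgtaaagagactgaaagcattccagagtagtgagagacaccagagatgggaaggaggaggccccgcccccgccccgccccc

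The Olfml2b window held 1 E-box, CAGATG, which began 216 bases before the gene start, and none of the other motifs searched. E-boxes are bound by basic helix-loop-helix factors, and 66.2% of the 32841 promoter windows of this length hold at least 1. The Olfml2a window held the E-box CACGTG and the STAT dimer TTCACAGAA, which began 216 and 197 bases before its start. The STAT dimer letters are in 7.02% of all windows. Olfml3 had the E-box CATCTG, and Olfml1 had the STAT dimer TTCTTGGAA, 194 bases before its start. The 2 windows of Olfm1 held no match, and each of the 3 windows of Olfm2 held 1 E-box. No window of a member held AP-1 letters (TGANTCA, in 6.75% of all windows) or the SMAD palindrome GTCTAGAC (0.167%). GC content was 69.6% for Olfml2b, 61.6% for Olfml2a and 57.6% for Olfml3, against a median of 52.4% over all windows. A match is a description of the letters in a window and not a binding site.

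Olfml2b was at 25.3, 15.5 and 14.9 CPM in control replicates 1, 2 and 3, from 236, 140 and 190 counts. It was at 39.5, 44.7 and 46.6 CPM in mutant replicates 1, 2 and 3, from 347, 548 and 439 counts. All 3 mutant libraries were above all 3 controls, and control 1 was the highest of the controls. The mean was 18.6 ± 5.82 CPM in controls and 43.6 ± 3.70 CPM in mutants (SD, n = 3 each), a 2.35-fold ratio. The log2 fold change was 1.24 with a standard error of 0.22. Without control 1, which carries the muscle counts, it was 1.54, and without control 3, which has the low Col2a1 share, it was 1.11. Scaled by gene count totals alone, Olfml2b was at 24.8, 15.4 and 17.0 CPM in controls and 35.2, 45.6 and 45.3 CPM in mutants, with the groups again apart.

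**Figure D1:**
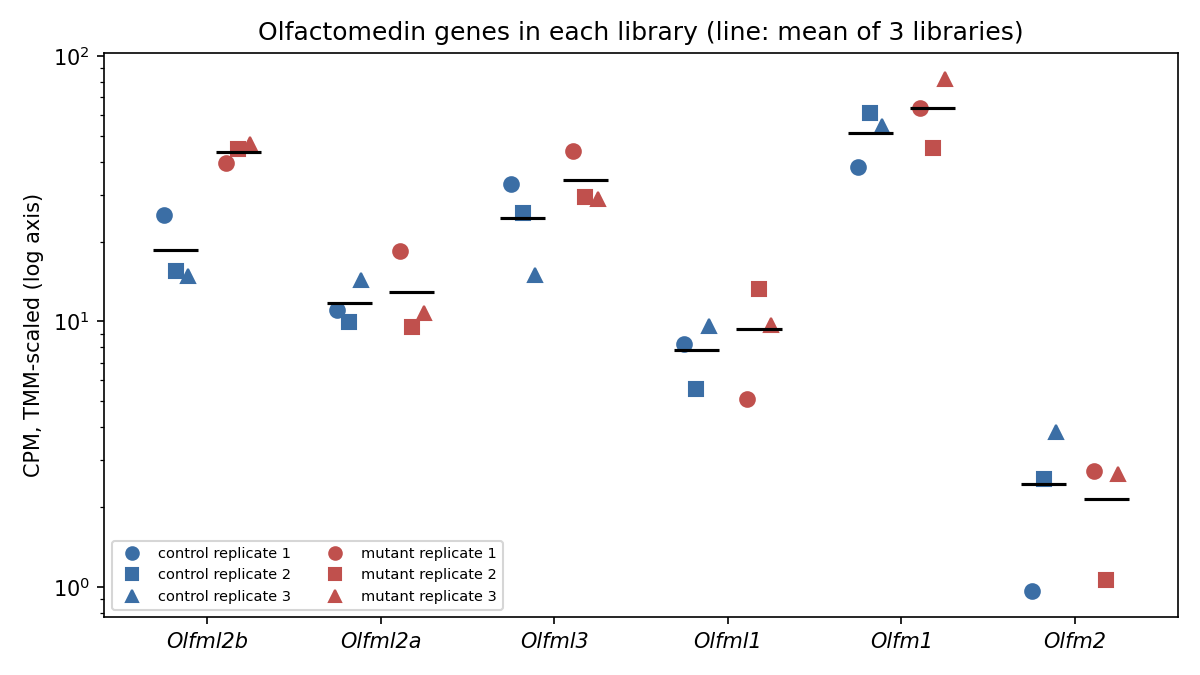
TMM-scaled CPM on a log axis for the 6 genes in each of the 6 libraries, with controls in blue, mutants in red, 1 symbol shape per replicate number and a line at the mean of 3 libraries. The Olfml2b mutant libraries (39.5 to 46.6 CPM) sit above its controls (14.9 to 25.3 CPM), while the genotypes overlap for the other 5 genes.

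The 4 genes nearest to Olfml2b among the genes tested, 2 on either side, were chosen after values were seen and did not pass in edgeR. Nos1ap, an adaptor of neuronal nitric oxide synthase, averaged 10.4 CPM in controls and 12.3 CPM in mutants (log2 fold change 0.24, adjusted p = 0.851). Atf6, a sensor of endoplasmic reticulum stress, averaged 21.8 and 22.6 CPM (log2 fold change 0.05, adjusted p = 0.965). Gm7694, on the far side of Nos1ap, averaged 6.21 and 9.33 CPM with every mutant library above every control (log2 fold change 0.59, unadjusted p = 0.0761, adjusted p = 0.710). Gm9929, at the end of Atf6, averaged 15.2 and 12.2 CPM (log2 fold change -0.32, adjusted p = 0.788).

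Olfml2a, photomedin-1, is the closest relative of Olfml2b and shares its binding to chondroitin sulfate and heparin. The gene lies on chromosome 2 from 38931978 to 38963753 on the plus strand. It was at 11.0, 9.99 and 14.3 CPM in controls and 18.4, 9.55 and 10.7 CPM in mutants. Mutant 1 was the highest library and mutant 2 the lowest, so the groups overlapped. Its only overlapping gene in the annotation, the pseudogene Gm13473, had 0 counts. The means were 11.8 ± 2.25 and 12.9 ± 4.83 CPM (SD, n = 3 each). The log2 fold change of 0.12 (SE 0.30, 95% interval -0.534 to 0.782) did not pass in edgeR, with an unadjusted p of 0.683 and an adjusted p of 0.943. Its sign turned without mutant 1 and with scaling by totals.

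Because both photomedin genes were counted in the same libraries, their ratio does not depend on scaling. Olfml2b counts were 2.29, 1.56 and 1.04 times Olfml2a counts in controls and 2.14, 4.68 and 4.35 times in mutants. Mutant 1 was below control 1 in this ratio, so the groups overlapped although their means were 1.63 ± 0.630 and 3.72 ± 1.38 (SD, n = 3 each). Against Olfml3, Olfml2b counts stood at 0.769, 0.606 and 0.990 in controls and at 0.899, 1.52 and 1.62 in mutants, again with mutant 1 below the highest control. Olfml2b made up 21.7%, 12.9% and 13.3% of the counts of the 6 genes in controls and 22.8%, 31.3% and 25.8% in mutants.

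Genes that make the ligand of the photomedins, chondroitin sulfate, were counted as a list of 13, of which 11 were tested in edgeR. At an unadjusted p under 0.05, 1 was higher in mutants, none was lower, and none passed adjustment. That gene was Chst3, the chondroitin 6-O-sulfotransferase, at 144 CPM in controls and 228 CPM in mutants (log2 fold change 0.66, edgeR unadjusted p = 0.0414, adjusted p = 0.686). Control 1 at 218 CPM was above mutant 1 at 200 CPM, so the groups overlapped. The list had no gene under 0.05 without control 3, without mutant 2, without mutant 3 or with scaling by totals, and 3 such genes without control 1. The median log2 fold change of the list was 0.02, and that of all genes tested was -0.01. The chain polymerase subunit Chsy1 averaged 30.2 and 38.1 CPM, and Chpf, its partner, 185 and 193 CPM. Chst15, which makes the highly sulfated E unit, was listed at 0 counts in every library.

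Olfml3 encodes a secreted scaffold that binds chordin and tolloid-class proteases and thereby takes part in the handling of bone morphogenetic proteins (BMPs). The gene lies on chromosome 3 from 103722222 to 103738001 on the minus strand. It was at 32.9, 25.6 and 15.0 CPM in controls and 43.9, 29.4 and 28.8 CPM in mutants. Mutant 1 was the highest library and control 3 the lowest, and control 1 was above mutants 2 and 3. The means were 24.5 ± 8.98 and 34.0 ± 8.57 CPM (SD, n = 3 each). The log2 fold change was 0.48 (SE 0.28, 95% interval -0.155 to 1.11), with an unadjusted p of 0.124 and an adjusted p of 0.749 in edgeR. Without control 1 the log2 fold change was 0.77 with an unadjusted edgeR p of 0.0214, without control 3 it was 0.22 (edgeR unadjusted p = 0.382) and without mutant 1 it was 0.29 (edgeR unadjusted p = 0.368). With no filter on low counts the unadjusted edgeR p was 0.0367 and the adjusted p 0.531.

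Of 10 BMPs, BMP antagonists and tolloid proteases that work with Olfml3 or its partners, all were tested. None was higher and 2 were lower at an unadjusted p under 0.05, none passed adjustment, and the median log2 fold change was -0.19. The 2 were Chrdl1, a chordin-like BMP antagonist, at 15.3 and 8.83 CPM (log2 fold change -0.80, unadjusted p = 0.0276), and Bmp7, a BMP ligand, at 21.1 and 12.8 CPM (-0.73, unadjusted p = 0.0201). For both, every mutant library was below every control, and the adjusted p in edgeR was 0.676. Without control 2 no gene of the list had an unadjusted p under 0.05, and without mutant 2 or mutant 3 only 1 did. Without control 1 the count was 3, and with limma-voom it was 5. Of the 10, 5 had a log2 fold change above 0. Bmp4, another BMP ligand, was at 6.18 and 11.1 CPM (log2 fold change 0.85, edgeR unadjusted p = 0.0532). Chrd, chordin itself, averaged 41.8 CPM in controls and 54.5 CPM in mutants (adjusted p = 0.738). Bmp1, the tolloid-class protease that also trims procollagens, averaged 238 and 313 CPM (adjusted p = 0.742).

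Olfml1 encodes a secreted olfactomedin-like protein whose partners are less known. The gene lies on chromosome 7 from 107567446 to 107591094 on the plus strand. It was at 8.24, 5.55 and 9.62 CPM in controls and 5.12, 13.3 and 9.67 CPM in mutants, so mutants held both the lowest and the highest library. The log2 fold change was 0.26 (SE 0.38, 95% interval -0.569 to 1.1, edgeR adjusted p = 0.894), and its sign turned without mutant 2.

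Olfm1, noelin-1, is a secreted glycoprotein known from the nervous system, where it binds the Nogo receptor and AMPA-type glutamate receptors. The gene lies on chromosome 2 from 28192992 to 28230736 on the plus strand. It had the most counts of the 6 genes, at 38.1, 61.2 and 54.4 CPM in controls and 63.6, 45.0 and 82.1 CPM in mutants. Control 1 was the lowest library and mutant 2 the next lowest. The means were 51.2 ± 11.9 and 63.6 ± 18.5 CPM (SD, n = 3 each), and the log2 fold change of 0.31 (SE 0.25, 95% interval -0.24 to 0.861) had an unadjusted p of 0.238 and an adjusted p of 0.807 in edgeR. Without mutant 2 it was 0.52 with an unadjusted edgeR p of 0.0462, without mutant 3 it was 0.09 (edgeR unadjusted p = 0.741) and without control 1 it was 0.16 (edgeR unadjusted p = 0.539).

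Olfm2, noelin-2, belongs to the same AMPA receptor-binding group. The gene lies on chromosome 9 from 20667690 to 20746349 on the minus strand. It had the fewest counts, 9, 23 and 49 in controls and 24, 13 and 25 in mutants, which gave 0.963, 2.55 and 3.83 CPM and 2.73, 1.06 and 2.66 CPM. The log2 fold change of -0.21 (SE 0.64, 95% interval -1.63 to 1.21, edgeR adjusted p = 0.954) spans changes of more than 2-fold either way at this depth, and its sign turned without control 3 or without mutant 2.

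Of 7 noelin binding partners, 6 were tested. At an unadjusted p under 0.05, none was higher and 2 were lower in mutants, the median log2 fold change was -0.86, and none passed adjustment. Without control 3 the count was 4. Rtn4r, the Nogo receptor, was at 5.06 ± 0.890 CPM in controls and 1.76 ± 0.196 CPM in mutants (SD, n = 3 each, log2 fold change -1.52, SE 0.43, edgeR unadjusted p = 0.00524, adjusted p = 0.676). Its co-receptor Lingo1 averaged 33.3 CPM in controls and 15.3 CPM in mutants (log2 fold change -1.12, unadjusted p = 0.0094, adjusted p = 0.676). For both genes every mutant library was below every control, which held for 963 of the 16152 genes tested. Over all genes tested, 4.32% were lower at an unadjusted p under 0.05 in edgeR. Ngfr, another co-receptor, went from 1.99 to 3.92 CPM with every mutant library above every control (adjusted p = 0.706). The AMPA receptor genes Gria1, Gria3 and Gria4 averaged 7.57, 7.50 and 4.57 CPM in controls and 5.02, 13.8 and 1.83 CPM in mutants, with unadjusted p-values of 0.293, 0.0624 and 0.0663.

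**Figure D2:**
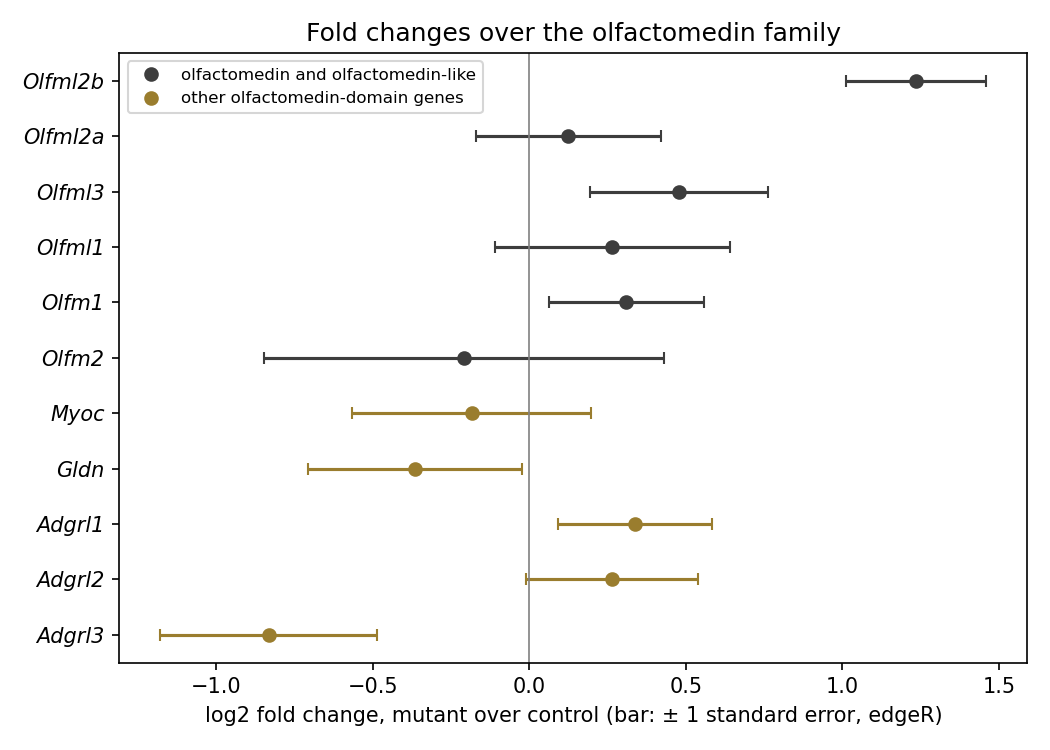
Log2 fold change of mutant over control from edgeR, with bars of ± 1 standard error, for the 6 genes (black) and the 5 other olfactomedin-domain genes that were tested (brown). Olfml2b, which was chosen on this contrast, is at 1.24, the other 5 lie between -0.21 and 0.48, and Adgrl3 is at -0.83.

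Other genes that carry an olfactomedin domain were counted for comparison. Of 7, 5 passed the filter on low counts, none was higher and 1 was lower at an unadjusted p under 0.05, and none passed adjustment. The median log2 fold change was -0.18, against 0.29 over the 6 members and 0.26 over the 5 without Olfml2b. The 1 was Adgrl3, a latrophilin, whose family of adhesion receptors carries the domain outside the cell, at 15.7, 15.2 and 34.5 CPM in controls and 8.54, 13.3 and 15.0 CPM in mutants. Every mutant library was below every control (log2 fold change -0.83, SE 0.35, edgeR unadjusted p = 0.0363, adjusted p = 0.676), and the unadjusted p was above 0.05 without control 3, without mutant 1 or without mutant 2. Without control 1, 3 genes of the list were under 0.05, and with limma-voom none was. Over 14.8% of its exon length Adgrl3 overlaps the antisense gene Gm16054, which had 29 counts in all against 1104 for Adgrl3. Adgrl1 averaged 135 CPM in controls and 171 CPM in mutants (adjusted p = 0.790), and 13% of its exon length overlaps Gm10644, which runs the other way. Gm10644 had 7518 counts in all against 9156 for Adgrl1. Myoc, the myocilin of the eye's drainage tissue, averaged 9.99 and 8.76 CPM, and Gldn, a protein of the nodes of myelinated axons, 8.91 and 6.92 CPM. Olfm3 and Olfm4 stayed under the filter, with 86 and 17 counts over the 6 libraries.

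Levels of different genes were compared per kilobase of exon. With the exons of coding transcripts in GENCODE M21, the order in controls was Olfm1 at 14.4 ± 3.34, Olfml2b at 5.99 ± 1.88, Olfml1 at 4.63 ± 1.23, Olfml3 at 4.48 ± 1.64, Olfml2a at 2.11 ± 0.404 and Olfm2 at 1.06 ± 0.623 CPM per kilobase (SD, n = 3 each). Olfml2b and Olfml1 overlapped between libraries, as did Olfml1 and Olfml3. In mutants Olfm1 was at 17.9 ± 5.22 and Olfml2b at 14.1 ± 1.20 CPM per kilobase, and these neighbours overlapped. Olfml3, Olfml1 and Olfml2a followed at 6.23 ± 1.57, 5.56 ± 2.43 and 2.31 ± 0.865 CPM per kilobase, where Olfml3 overlapped Olfml1 and Olfml1 overlapped Olfml2a. Olfm2 was last at 0.932 ± 0.409 and did not overlap Olfml2a.

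The order depends on which exons are counted, because GENCODE gives Olfml3 and Olfml2a longer exons (5465 and 5579 bp) than lie within their RefSeq genes (1736 and 2409 bp). With the shorter lengths, Olfml3 stood at 14.1 ± 5.17 CPM per kilobase in controls and 19.6 ± 4.94 in mutants, beside Olfm1 at 14.8 and 18.4, and Olfml2a stood at 4.89 ± 0.935 and 5.36 ± 2.00 (SD, n = 3 each). Olfml2b had the same length in both and kept its 5.99 and 14.1 CPM per kilobase. It ranked below Olfml3 and Olfm1 in controls and in mutants under the shorter lengths. In mutants its highest library was then at 15.07 CPM per kilobase, below the lowest of Olfml3 at 16.59. Olfml2b overlapped with Olfm1 in mutants under both lengths.

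**Figure D3:**
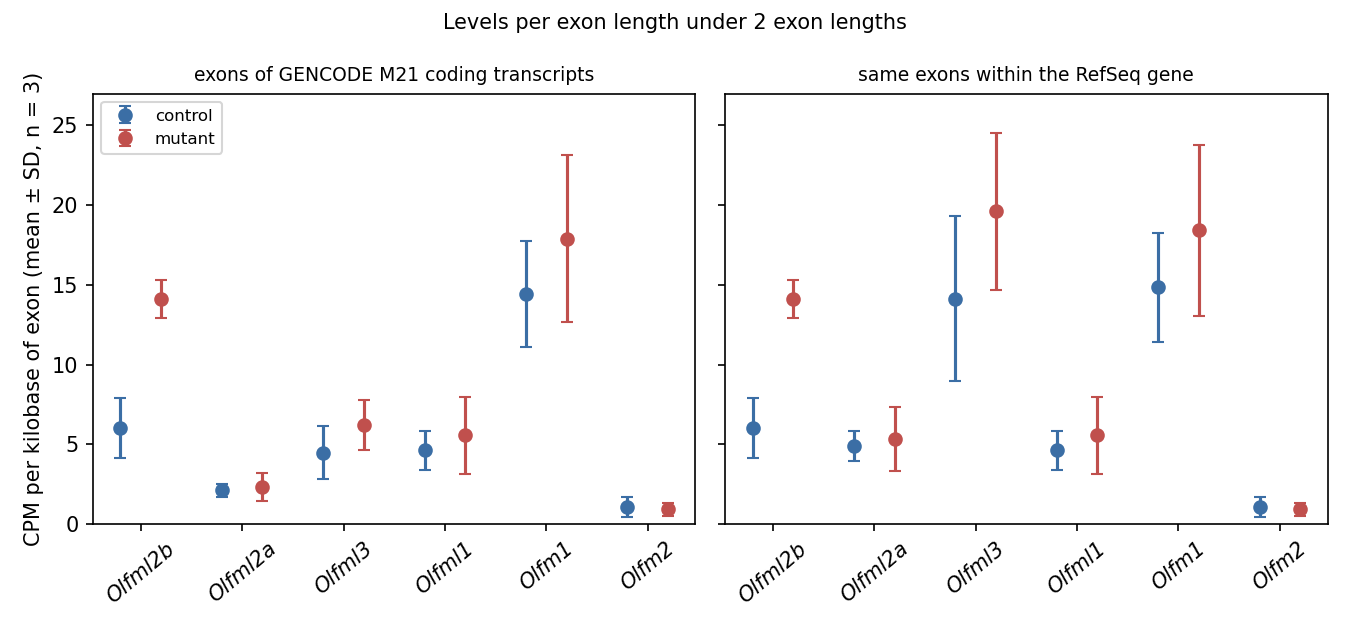
CPM per kilobase of exon, mean ± SD over 3 libraries, for controls (blue) and mutants (red), with all exons of GENCODE coding transcripts on the left and only exons within the RefSeq gene on the right. Olfml2b is at 5.99 and 14.1 in both panels, while Olfml3 moves from 4.48 to 14.1 in controls with the shorter length.

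In log2 CPM, Pearson's r over the 6 libraries was 0.673 between Olfml2b and Olfml3, -0.02 between Olfml2b and Olfml2a and -0.363 between Olfml2b and Olfm2. Olfm1 and Olfm2 had the highest r of the 15 pairs, 0.740, and 0.849 once each genotype's mean was subtracted. With the genotype means subtracted, r of Olfml2b was 0.511 with Olfml3, 0.286 with Olfml1, -0.376 with Olfml2a, -0.542 with Olfm1 (0.204 before) and -0.798 with Olfm2. The points share library depth, dissection and scaling, and the values are descriptions over 6 libraries.

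The genes whose pattern over the 6 libraries was most like that of Olfml2b were Ikbke, a kinase related to the IKK group (r = 0.994), Psrc1 (0.990), Gm11747 (0.989), Thbs4 (0.988) and Gm16091 (0.987). Thbs4, a thrombospondin of tendon and ligament matrix, was at 113, 72.7 and 62.9 CPM in controls and 148, 200 and 180 CPM in mutants, with every mutant library above every control. After subtracting genotype means the 5 most alike were Rer1, Gm12945, Myl6b, Cdv3 and Asb2, so no gene was in both sets. For Olfml3 the most alike over the 6 libraries were Srpr (0.996), Atp8b2, Wdr55, Tmc8 and Col6a3 (0.988), a chain of the microfibril-forming collagen VI. Olfml1 was most like Dgki, Nova1, Dgkh, Plcl1 and Kpna4, and Olfml2a most like AI467606, Lats2, Ctxn3, Arhgap39 and Slc19a2. Olfm1 was most like Evpl, Dclre1b, Klrg2, Unc13d and Crip2, and Olfm2 most like Tmtc4, Wdsub1, Tusc2, Gm26620 and Ankrd16. Each set is the top 5 of 16152 genes over only 6 libraries.

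Markers of fibrous tissue were given beside Olfml2b. Of 12 fibroblast markers, all had a log2 fold change above 0, 5 were higher and none lower at an unadjusted p under 0.05 in edgeR, none passed adjustment, and the median log2 fold change was 0.80. Without control 1 the count was 8. Postn, a matricellular protein of fibrous tissue, was at 93.3, 45.5 and 51.5 CPM in controls and 143, 150 and 135 CPM in mutants. Col3a1, the chain of type III collagen, averaged 1855 and 3925 CPM (log2 fold change 1.08, unadjusted p = 0.00335, adjusted p = 0.627). The summed fibroblast level ranged from 11317 to 26397 CPM in controls and from 25020 to 44277 CPM in mutants. Most of it was Col1a1, at 3879 to 20231 CPM over all libraries, and Col1a2, at 3857 to 16184 CPM. As with Olfml2b, control 1 had the highest control sum and mutant 1 the lowest mutant sum, but the sums of the genotypes overlapped. No fibroblast marker was at 0. In 5 of the 12 (Col3a1, Col5a1, Col5a2, Postn and Pdgfrb) every mutant library was above every control, and the genotypes overlapped in the others, Col1a1 and Col1a2 among them.

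Of 6 tendon and outer annulus markers, 2 were higher in mutants at an unadjusted p under 0.05, Thbs4 and Tnmd, a membrane protein of tendon cells, and the median log2 fold change was 0.48. Neither gene passed adjustment (edgeR adjusted p = 0.553 and 0.629). In these 2 every mutant library was above every control, and the genotypes overlapped for Scx, Mkx, Fmod and Kera. The summed level of the list was 2889 to 4219 CPM in controls and 3775 to 5331 CPM in mutants. The 5 smooth muscle and pericyte markers, none of which passed, summed to 294 to 394 CPM in controls and 408 to 641 CPM in mutants, and 5 glia markers to 224 to 1654 and 920 to 3579 CPM. Without mutant 1, 2 of the smooth muscle and pericyte markers had an unadjusted p under 0.05, and without control 1 or mutant 2, 1 did. Among the glia markers, Gfap, an astrocyte filament protein, was higher in mutants (16.9 and 64.0 CPM, log2 fold change 1.93, edgeR unadjusted p = 0.00776, adjusted p = 0.676), although control 2 at 34.5 CPM was above mutant 3 at 29.0 CPM. The glia count of 1 became 3 without control 2 or without mutant 3 and 2 without mutant 2.

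Beside the noelin genes and their partners, 8 neuron markers were counted and 7 tested. At an unadjusted p under 0.05, the neurofilament genes Nefl (0.551 and 4.10 CPM, log2 fold change 2.94) and Nefm (1.04 and 6.85 CPM, 2.74) were higher in mutants and Rbfox3, a neuronal splicing factor, was lower (10.7 and 5.20 CPM, -1.04). Their unadjusted edgeR p-values were 0.0254, 0.011 and 0.0256, and none passed adjustment (adjusted p = 0.676 for each). In all 3 the libraries of the genotypes overlapped, and the count of 3 became 1 without mutant 1 and 2 without control 3 or without mutant 3. Tubb3 was at 0 counts, and the list summed to 10.5 to 40.1 CPM in controls and 18.5 to 32.4 CPM in mutants.

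Lists of bone, blood and immune cell markers were counted as well. Of 6 osteoblast markers, 2 were higher at an unadjusted p under 0.05 in edgeR, Bglap, which encodes osteocalcin (5.83 and 18.1 CPM, log2 fold change 1.64, edgeR unadjusted p = 0.000415), and its copy Bglap2 (3.43 and 8.50 CPM, 1.31, edgeR unadjusted p = 0.00473), whose near-identical sequence makes the split of reads uncertain. Of the 6, 4 had a log2 fold change above 0, and the median was 0.26. Sp7 (105 and 79.6 CPM, log2 fold change -0.41) and Alpl (532 and 446 CPM, -0.25) went the other way. The osteoblast list summed to 758 to 1213 CPM in controls and 871 to 1140 CPM in mutants. Of 7 red cell and neutrophil precursor markers, 6 were tested and 1 was higher, the granule enzyme Mpo (4.09 and 18.3 CPM, log2 fold change 2.15, edgeR unadjusted p = 0.000661), with sums of 20.3 to 35.0 and 32.6 to 105 CPM. Of 7 macrophage markers 1 was higher, Cd68 (4.65 and 7.76 CPM, edgeR unadjusted p = 0.0401), with sums of 47.6 to 66.7 and 52.1 to 91.8 CPM. Of these 7, 6 had a log2 fold change above 0, and Adgre1 was at -0.56. Of 5 microglia markers 2 were tested and 1 was higher, Tmem119, which osteoblasts also express (19.0 and 32.4 CPM, edgeR unadjusted p = 0.0138). Cx3cr1, the other one tested, was at 25.8 and 25.6 CPM (log2 fold change -0.01). The microglia list had sums of 42.6 to 52.8 and 53.8 to 71.2 CPM, while Sall1, Siglech and P2ry12 stayed under the filter. For Bglap, Bglap2, Mpo, Cd68 and Tmem119 every mutant library was above every control. None of these genes passed adjustment. With 1 library left out, the macrophage count of 1 became 0 without control 2, control 3, mutant 1 or mutant 3, and it was also 0 with scaling by totals, without the filter and with the replicate block. The microglia count of 1 became 0 without control 3 or mutant 2. The precursor count of 1 became 4 without mutant 3, 3 without control 3 and 2 without control 1 or mutant 2, and it was 5 of 7 without the filter. The osteoblast count of 2 was 2 or 3 throughout.

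Of 9 chondrocyte markers, 7 had a log2 fold change below 0 and the median was -0.29. Matn3, a cartilage matrix adaptor, was lower at an unadjusted p under 0.05 (525 and 305 CPM, log2 fold change -0.78, edgeR unadjusted p = 0.0178, edgeR adjusted p = 0.676). Hapln1, the link protein that fixes aggrecan to hyaluronan, averaged 966 and 745 CPM (log2 fold change -0.38, edgeR unadjusted p = 0.137). For both, every mutant library was below every control. Without control 1, without mutant 2 or without mutant 3 no chondrocyte marker had an unadjusted p under 0.05. Col2a1 averaged 94670 and 113942 CPM (log2 fold change 0.27, edgeR unadjusted p = 0.572). None of 5 endothelium markers and none of the 6 nucleus pulposus markers tested passed, with sums of 119 to 232 and 191 to 215 CPM for the former and 1129 to 2223 and 1205 to 2303 CPM for the latter. Without control 1, 4 of the endothelium markers had an unadjusted p under 0.05, and without control 3 or mutant 2, 1 of the nucleus pulposus markers did. The part of any of these lists in the levels of Olfml2b and the other 5 genes was not tested.

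**Figure D4:**
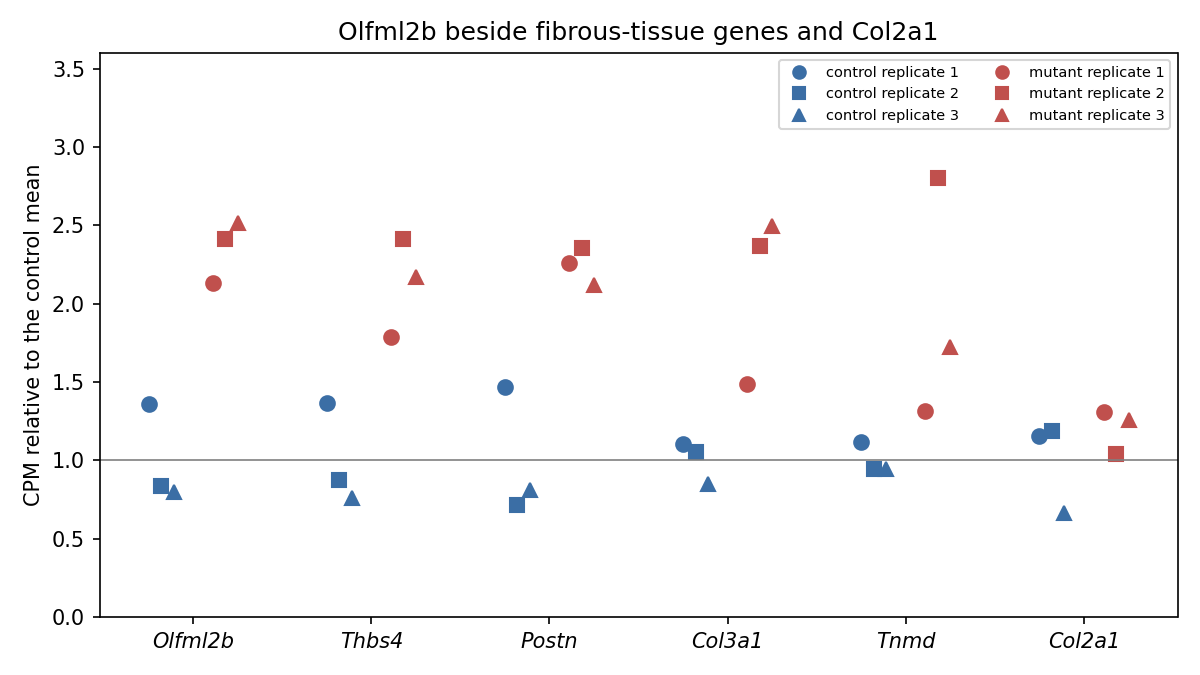
CPM of each library divided by the mean of the 3 controls, for Olfml2b, 4 genes from the 5 of 12 fibroblast and 2 of 6 tendon markers whose genotypes do not overlap (Thbs4, Postn, Col3a1, Tnmd) and the cartilage collagen Col2a1, with controls in blue and mutants in red. Mutant libraries lie above all controls for Olfml2b, Thbs4, Postn, Col3a1 and Tnmd, and the genotypes overlap for Col2a1, whose log2 fold change of 0.27 is one of only 2 above 0 among the 9 chondrocyte markers.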

How the data were processed

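RNA-seq libraries of mouse IVDs, 3 mutant and 3 control pools, were analysed from counts per gene symbol that the authors deposited, 1 table per library. The methods give trimming with Cutadapt and mapping with HISAT2 to GRCm38.88, whereas the submitters' processing notes list STAR 2.5.3a, HTSeq and DESeq2. The strand setting is not given in the sources used here, and the gene models used for counting are named no further than by that build, which limits levels per kilobase and genes that overlap others. Libraries were poly(A)-selected. Between 40.4% and 44.2% of each table's total lay on genes, and closing lines that name no gene were left out. A deposited table of the authors' own fold changes and p-values was not used.

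Counts were scaled by TMM, filtered with filterByExpr (count minimum 10) and tested with edgeR 4.0.16 (limma 3.58.1, R 4.3.3), with Benjamini-Hochberg adjustment over 16152 genes. Levels are CPM with TMM-scaled library sizes, and log2 CPM for correlations used a prior count of 2. The fit was tested on simulated data. Positions and exon lengths are from GENCODE M21, and promoter sequences from RefSeq (GRCm38.p6), with 6 of 6 genes matched. Named genes were the 6 members, the genes of the lists, the targeted gene, any gene overlapping a member, and the 5 tested genes closest to each member by Pearson's r. The neighbours of Olfml2b and the genes that overlap Adgrl1 and Adgrl3 were named outside this rule, after values were seen. Alternatives were other scalings, no filter, DESeq2 1.42.0, limma-voom with quality weights, a replicate block and leaving out each library. The members and lists were chosen with earlier results of these data known. Reads carry no molecular identifiers, so depth covers counting error only.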

Additional observations from a re-analysis of the deposited data

How the results depend on the processing

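The log2 fold change of Olfml2b was above 0 under all 12 alternatives, at 1.11 to 1.54 with 1 library left out and 1.14 to 1.38 otherwise. Because Olfml2b was chosen on this contrast in the same libraries, its stable sign is a description and not a test. None of the other 5 genes passed at an adjusted p under 0.05 under any alternative. The sign turned for Olfml1 (-0.065 without mutant 2), for Olfml2a (-0.028 with library totals, -0.18 without mutant 1) and for Olfm2 (0.28 without control 3, 0.15 without mutant 2), and with 1 library left out they ran from -0.065 to 0.59, from -0.18 to 0.32 and from -0.57 to 0.28. Over all genes, adjusted calls numbered 1 with TMM, 245 without the filter, 58 with DESeq2, 0 with limma-voom and 0 with the replicate block, and 0 to 31 with 1 library left out. At an unadjusted p under 0.05 they numbered 1164 with TMM, 2276 without the filter and 618 to 2427 with 1 library left out, the lowest without control 3 and the highest without control 1. The causes were not tested. Same-numbered libraries deviated from their genotype means with correlations of 0.159, -0.132 and 0.101, and libraries of unlike number with -0.265 to 0.179. These few values cannot tell whether a shared number marks a pairing of pools. The replicate block gave 1002 unadjusted edgeR calls, with Olfml3 at an unadjusted edgeR p of 0.0412 there and of 0.0367 without the filter. With exons limited to the RefSeq gene, a length chosen after seeing the data, Olfml2a moved to 4.89 and 5.36 and Olfml3 to 14.1 and 19.6 CPM per kilobase in controls and mutants. Depth limits Olfm2 most, at 143 counts in all.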
